A study of Mus musculus with 8 samples.

Results

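Ranbp3l and 8 genes of the BMP-SMAD pathway were described in IMCD cells, a murine line from the inner medullary collecting duct, the last stretch of the renal tubule, with and without added NaCl. The 9 genes were taken by symbol from the raw count table: Ranbp3l and its relative Ranbp3, Smad1 and Smad5, Smad6 and Smad7, and Id1, Id2 and Id3. Each matched 1 row of the 15288 genes in the table, and all 9 were among the 14024 genes that passed the filter on low counts. The group was chosen by a measured value, the NaCl over control difference of Ranbp3l in these same libraries, and the others were added by name as its pathway partners, so the NaCl comparison of the 9 genes is given as a description, without p-values.

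Control cells were kept for 12 h in DMEM without serum (n = 4 libraries, control replicates 1 to 4). NaCl cells were kept for the same time in the same medium with 100 mmol NaCl, a quantity the labels give without a volume (n = 4 libraries, NaCl replicates 5 to 8). All 8 libraries came from the same cell line, grown beforehand to confluence in DMEM with high glucose, pyruvate, serum and antibiotics. Nothing in the labels says that the libraries came from separate cultures, so the spread between them, and any p-value that rests on it, may be technical.

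Bone morphogenetic proteins (BMPs) bind pairs of receptor kinases at the cell surface, which phosphorylate SMAD1, SMAD5 and SMAD9. These join SMAD4, enter the nucleus and switch on target genes, of which Id1, Id2 and Id3 are the best known. ID proteins bind E proteins and keep them from DNA. SMAD6 and SMAD7 are made in response to the signal and inhibit it. RANBP3L is known to bind SMAD1 and SMAD5 and carry them out of the nucleus, which lowers BMP output, and RANBP3 does the same for SMAD2 and SMAD3 of the TGF-beta branch. In the kidney, BMP7 is known for its part in nephron formation and in protection from fibrosis.

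The promoters of Ranbp3l and of the pathway targets among the 9 genes that have a window (Smad6, Id2 and Id3) are shown for the short motifs they hold. They are RefSeq windows on GRCm38.p6, from 250 bases before to 50 bases after the annotated start, written 5′ to 3′ on the strand of the gene, and capitals mark motif matches. The Ranbp3l window is chr15:8967699-8967998 (plus strand), the Smad6 window chr9:64022010-64022309 (minus strand), the Id2 window chr12:25096043-25096342 (minus strand) and the Id3 window chr4:136143572-136143871 (plus strand).
Ranbp3l: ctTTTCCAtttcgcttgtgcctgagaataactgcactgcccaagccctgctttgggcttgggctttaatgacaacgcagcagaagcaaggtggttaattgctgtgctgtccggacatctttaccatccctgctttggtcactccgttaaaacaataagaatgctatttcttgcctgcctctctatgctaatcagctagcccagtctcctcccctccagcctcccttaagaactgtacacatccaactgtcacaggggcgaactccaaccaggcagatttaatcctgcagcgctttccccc
Smad6: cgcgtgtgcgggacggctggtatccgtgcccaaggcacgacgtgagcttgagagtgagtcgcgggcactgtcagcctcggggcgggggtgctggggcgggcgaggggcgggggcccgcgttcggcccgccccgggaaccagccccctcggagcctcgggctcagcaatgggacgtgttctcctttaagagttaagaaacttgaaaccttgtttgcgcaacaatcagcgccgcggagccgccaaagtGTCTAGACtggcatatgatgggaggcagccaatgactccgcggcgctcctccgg
Id2: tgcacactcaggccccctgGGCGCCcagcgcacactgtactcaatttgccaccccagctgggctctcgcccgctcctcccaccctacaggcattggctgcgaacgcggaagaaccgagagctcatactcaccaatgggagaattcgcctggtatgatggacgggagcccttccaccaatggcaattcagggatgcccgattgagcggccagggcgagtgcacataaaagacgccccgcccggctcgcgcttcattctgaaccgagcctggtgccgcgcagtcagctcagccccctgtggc
Id3: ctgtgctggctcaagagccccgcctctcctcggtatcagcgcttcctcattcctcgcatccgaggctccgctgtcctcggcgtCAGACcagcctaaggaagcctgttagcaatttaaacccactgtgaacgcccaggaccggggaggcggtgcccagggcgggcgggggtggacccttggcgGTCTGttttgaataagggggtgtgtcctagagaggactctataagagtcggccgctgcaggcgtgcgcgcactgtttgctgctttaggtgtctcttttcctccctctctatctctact

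Motifs were searched on both strands, and a match is a description of the letters only. TGGAAA, the start of the tonicity element bound by NFAT5, occurred once in the Ranbp3l window, as its reverse complement TTTCCA 248 bases before the start. Of 32817 promoter windows of the same length, 21.4% held that motif. GTCTAGAC, a palindromic pair of SMAD boxes, began 4 bases before the start in the Smad6 window and ran across it. That motif occurred in 0.213% of all windows. GGCGCC, a GC-rich element bound by BMP SMADs, occurred in the Id2 window and in 11.9% of all windows. CAGAC, the single SMAD box, had 2 matches in the Id3 window, 1 of them as GTCTG, and occurred in 49.6% of all windows. Smad5 has 3 windows, of which the first and the second overlap and hold the same GGCGCC site, and the third holds CAGAC. The Smad1 window held none of the motifs. No match of 1 motif overlapped a match of another. The Ranbp3l window had a GC content of 50.3% with 6 CpG dinucleotides, against a median over all windows of 52.7% with 7. The 7 windows of Smad1, Smad5, Smad6, Id2 and Id3 had a GC content between 60% and 68% with 19 to 36 CpG. Ranbp3, Smad7 and Id1 had no entry in the table of windows.

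On GRCm38, Ranbp3l (ENSMUSG00000048424) lies on chromosome 15 from 8967949 to 9067335. Ranbp3 (ENSMUSG00000002372) lies on chromosome 17 from 56673294 to 56711764. Smad1 (ENSMUSG00000031681) is on chromosome 8 from 79338395 to 79399518, and Smad5 (ENSMUSG00000021540) is on chromosome 13 from 56703010 to 56742377. Smad6 (ENSMUSG00000036867) is on chromosome 9 from 63953076 to 64022059, and Smad7 (ENSMUSG00000025880) is on chromosome 18. Id1 (ENSMUSG00000042745) spans 152736251 to 152737410 on chromosome 2, Id2 (ENSMUSG00000020644) spans 25093799 to 25097140 on chromosome 12, and Id3 (ENSMUSG00000007872) spans 136143497 to 136145755 on chromosome 4. All 9 are protein-coding genes, and values are read counts per gene. No member shared an aligned stretch of at least 75 bases at 98% identity with a transcript of another gene. An annotated small RNA, Gm27301, covers 1.35% of the exon bases of Smad5, and no other member overlaps an annotated exon of another gene.

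Libraries held 35286796 to 47565623 counts. Of 10 epithelial and collecting duct markers, Cdh16 and Krt18 were abundant in both groups, while Aqp2, the vasopressin-regulated water channel of the collecting duct, had 0.0241 CPM (counts scaled to a common library total) in control and 0.305 CPM in NaCl libraries, and Cdh1 (E-cadherin) had 0.195 and 0.535 CPM. The summed level of the 10 markers was 1180 to 1502 CPM in control and 2173 to 2406 CPM in NaCl libraries, with 4 of the 8 tested called higher and none called lower. Most of the rise of that sum was Cdh16, which went from 639.5 to 1380 CPM, while Krt18 had 217 and 205 CPM and Krt8 had 109 and 96.5 CPM. Of 7 fibroblast markers, 6 were in the table, and their sum was 3128 to 3635 CPM in control and 2820 to 3254 CPM in NaCl libraries. Most of that sum was Col1a1, which fell from 2492 to 2148 CPM (edgeR adjusted p = 0.00808). Pdgfra also fell, Pdgfrb rose from 37.5 to 61.1 CPM (edgeR adjusted p = 1.08e-06) and 3 did not pass. Endothelial markers (2 of 5 in the table) summed to at most 0.87 CPM. Leukocyte markers (3 of 5 in the table) summed to 12.97 to 17.85 CPM in control and 21.26 to 26.13 CPM in NaCl libraries. Of these, Ptprc rose from 4.06 to 13.5 CPM (edgeR adjusted p = 5.91e-10), while Csf1r had 9.22 and 8.86 CPM and Cd68 had 2.41 and 1.69 CPM (edgeR adjusted p = 0.874 and 0.0573). The part of these shifts in the results below was not tested. In bulk libraries a change in the share of cells of a type and a change in RNA per cell cannot be told apart.

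Of the 9 genes, Ranbp3l and Id3 were higher and Smad1 was lower in every NaCl library than in every control library, while the other 6 overlapped between the groups. The 3 genes without overlap stand beside 33.4% of all tested genes. Past an adjusted p of 0.05 in edgeR's quasi-likelihood test lay 4 of the 9, beside 34.1% of all genes: Ranbp3l, Id3 and Smad6 higher (3 genes, beside 16.9% of all) and Smad1 lower (1 gene, beside 17.2%). Since the comparison was known when the genes were chosen, nothing is read from these counts. Without Ranbp3l the median log2 fold change (NaCl over control) of the 8 remaining genes was 0.03, and their median absolute log2 fold change was 0.10. Over all genes tested the same medians were 0.003 and 0.14.

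**Figure D1:**
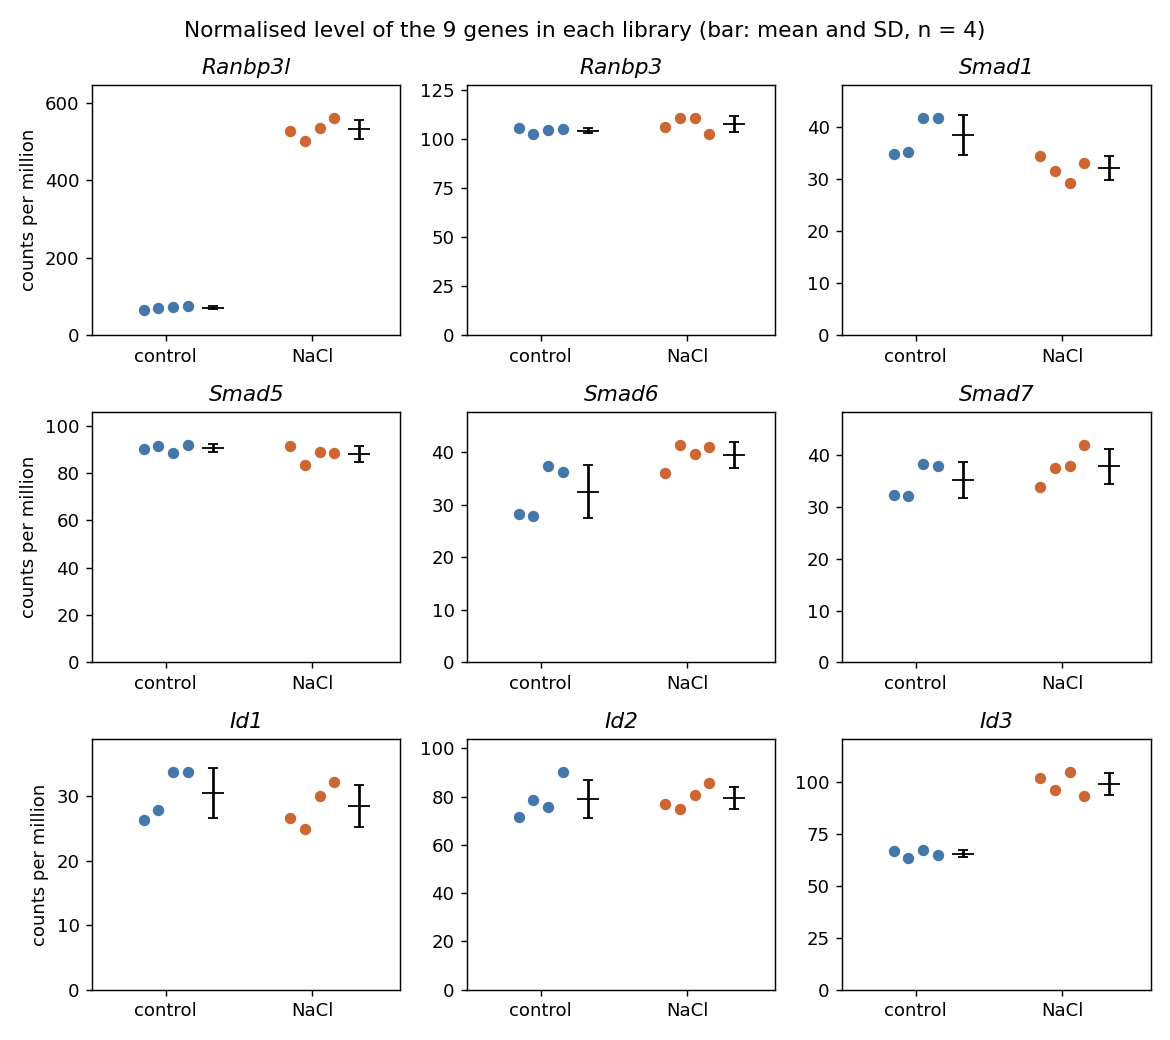
Normalised level (CPM, linear axis from 0) of each of the 9 genes in each library, with the mean and SD of 4 libraries at the right of each group. Ranbp3l and Id3 lie higher and Smad1 lies lower in every NaCl library, and the groups of the other 6 genes overlap.

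The export factors differed from each other. Ranbp3l had 66.2, 71.5, 72.5 and 76.7 CPM in control replicates 1 to 4 and 529, 502, 535 and 562 CPM in NaCl replicates 5 to 8. The lowest NaCl library was far above the highest control library. The fitted fold was 7.42 (95% interval 6.93 to 7.96), which ranked 27 from the highest among the 14024 genes tested. Ranbp3, which encodes the related export factor of the TGF-beta branch, had 105.5, 102, 104.5 and 105 CPM in control and 106, 111, 111 and 103 CPM in NaCl libraries. These values were mixed between the groups, and the fitted fold was 1.03 (95% interval 0.979 to 1.09). Per kilobase of exon, Ranbp3l made up 41.1 ± 1.54% of the sum of both export factor transcripts in control and 83.4 ± 1.08% in NaCl libraries (SD over 4 libraries). These shares depend on the length taken for each gene, here that of its merged exons.

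The receptor-activated SMADs that RANBP3L binds were measured next. Smad1 had 34.8, 35.2, 41.6 and 41.8 CPM in control and 34.4, 31.6, 29.2 and 33.0 CPM in NaCl libraries. The highest NaCl library (34.4) lay just below the lowest control library (34.8), so the groups were separate by a narrow margin, and the fitted fold was 0.836 (95% interval 0.753 to 0.928). Smad5 had 90.2, 91.6, 88.5 and 92.0 CPM in control and 91.3, 83.2, 88.7 and 88.4 CPM in NaCl libraries. Its groups overlapped, with a fold of 0.970 (95% interval 0.918 to 1.03). Smad5 was the more abundant per kilobase, and Smad1 made up 33.4 ± 2.35% of the sum of both in control and 30.2 ± 1.42% in NaCl libraries (SD over 4 libraries).

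The inhibitory SMADs are targets of the pathway as well as its brakes. Smad6, which acts mainly on BMP signalling, had 28.3, 27.98, 37.4 and 36.2 CPM in control and 36.1, 41.5, 39.7 and 41.0 CPM in NaCl libraries. Control replicates 3 and 4 lay beside NaCl replicate 5, and control replicates 1 and 2 lay lower. The fitted fold was 1.22 (95% interval 1.06 to 1.41). Smad6 no longer passed the threshold without control replicate 1 (log2 fold change 0.22), control replicate 2 (0.22), NaCl replicate 6 (0.26), NaCl replicate 7 (0.28) or NaCl replicate 8 (0.27), against 0.29 with all libraries. Smad7, which inhibits the BMP and TGF-beta branches, had 32.2, 32.1, 38.2 and 37.9 CPM in control and 33.8, 37.4, 37.8 and 41.9 CPM in NaCl libraries. The groups overlapped, and the fold was 1.08 (95% interval 0.965 to 1.20). With a linear drift over library numbers 1 to 8 as a term, the log2 fold change was -0.10 for Smad6 and -0.27 for Smad7.

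Among the Id genes, Id3 was separate between the groups, while Id1 and Id2 overlapped, and the difference between the 3 was not tested. Id3 had 66.7, 63.0, 67.0 and 64.8 CPM in control and 102, 96.0, 105 and 93.0 CPM in NaCl libraries. All NaCl libraries lay above all controls, and the fold was 1.51 (95% interval 1.42 to 1.61). Id1 had 26.4, 27.9, 33.8 and 33.8 CPM in control and 26.6, 24.9, 30.0 and 32.2 CPM in NaCl libraries. Its groups overlapped, with a fold of 0.935 (95% interval 0.807 to 1.08). Id2 had 71.6, 78.7, 75.9 and 90.3 CPM in control and 76.9, 75.1, 80.8 and 85.5 CPM in NaCl libraries. Its fold was 1.01 (95% interval 0.913 to 1.11), and its log2 fold change ran from -0.04 to 0.08 when single libraries were left out. Summed per kilobase over the Id genes, the level was 89.3 to 102 RPKM (CPM divided by exon length in kilobases) in control and 106 to 117 RPKM in NaCl libraries. Id3 made up 38.5 ± 2.58% of that sum in control libraries against 49.2 ± 2.65% with NaCl (SD, n = 4).

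**Figure D2:**
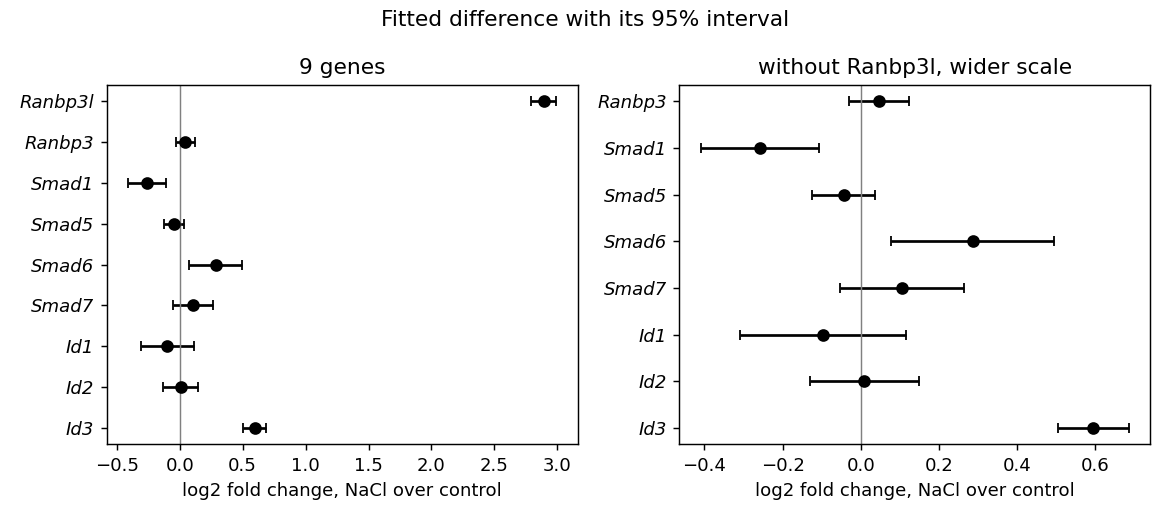
Fitted log2 fold change (NaCl over control) of the 9 genes with its 95% interval, on 1 scale at the left and without Ranbp3l at the right. Ranbp3l lies at 2.89 and Id3 at 0.60, while the intervals of Ranbp3, Smad5, Smad7, Id1 and Id2 include 0.

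Levels were ordered per kilobase of merged exon, and the order between genes depends on that length. For Ranbp3l it was 6855 bases, against 3393 bases in its longest transcript. In control libraries the order of mean RPKM was Id3 (36.5), Id2 (32.5), Id1 (26.2), Ranbp3 (14.99), Smad5 (12.2), Ranbp3l (10.5), Smad6 (10.1), Smad7 (7.76) and Smad1 (6.13). The ranges of neighbours overlapped for Id3 and Id2 and for Ranbp3l and Smad6. In NaCl libraries the order was Ranbp3l (77.6), Id3 (55.2), Id2 (32.6), Id1 (24.5), Ranbp3 (15.5), Smad6 (12.3), Smad5 (11.9), Smad7 (8.34) and Smad1 (5.12), and the ranges of Smad6 and Smad5 overlapped. Ranbp3l thus stood sixth of the 9 in control and first in NaCl libraries. Among all genes tested its level was above 63.9% in control and above 96.3% in NaCl libraries.

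**Figure D3:**
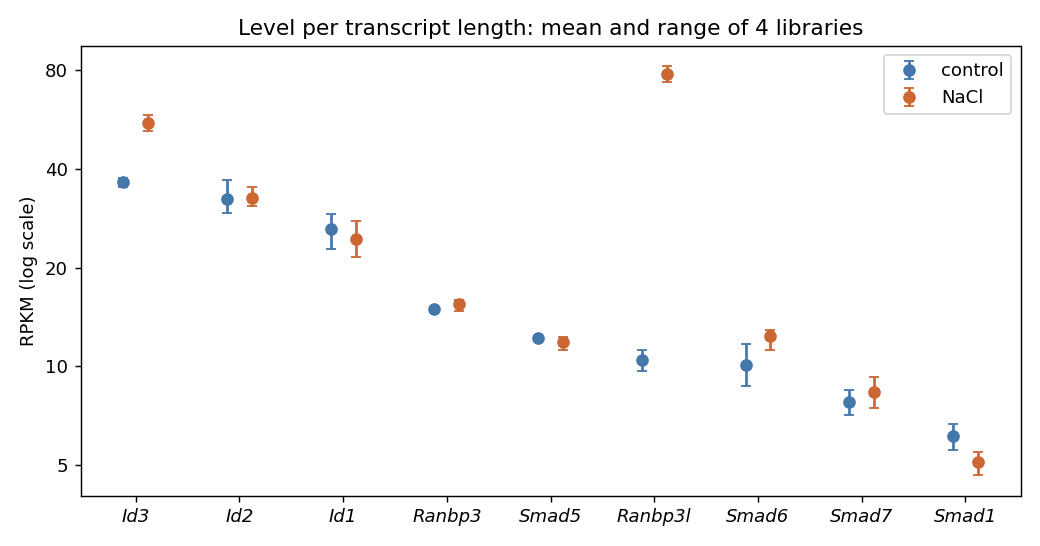
Level per kilobase of exon (RPKM, log axis) of the 9 genes in control and NaCl libraries, as the mean of 4 libraries with bars from the lowest to the highest. Ranbp3l moves from 10.5 to 77.6 RPKM and passes the Id genes, and among the others Smad5 and Smad6 change places.

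A measure that did not enter the choice of the genes was how they varied inside the groups. Smad6, Id1, Id2, Smad1 and Smad7 had coefficients of variation of 9.69% to 15.5% in control libraries, where counting error alone gives 1.71% to 2.76%. Ranbp3, Smad5 and Id3 varied by 1.32% to 2.82% there. In NaCl libraries the values lay closer together, from 5.81% (Id2) to 11.5% (Id1) for the first 5 genes and from 3.69% (Ranbp3) to 5.30% (Id3) for the other 3. Ranbp3l lay between these sets in control libraries, at 6.02%, and had 4.61% in NaCl libraries. In a fit with the group and the library number of the labels, centred in each group, 5 of the 9 genes were related to the number at an adjusted p under 0.05, beside 13.2% of all genes. These were Id1 (slope 0.12 log2 units per number, SE 0.025; edgeR adjusted p = 0.000906), Id2 (0.08; adjusted p = 0.00240), Smad7 (0.09; adjusted p = 0.00290), Ranbp3l (0.05; adjusted p = 0.0102) and Smad6 (0.10; adjusted p = 0.0148). All 5 slopes were positive, beside 6.95% of all genes with such a slope past the threshold, and libraries 3, 4, 7 and 8 held the higher values of Id1 in both groups. Ranbp3 (adjusted p = 0.840), Smad1 (0.398), Smad5 (0.986) and Id3 (0.662) did not pass in edgeR. The labels do not say what the number stands for, and since 1 to 4 are control and 5 to 8 are NaCl, a linear drift over all 8 numbers is partly confounded with the group. With such a drift in the fit the log2 fold change was -0.59 for Id1, -0.30 for Id2, -0.27 for Smad7, -0.41 for Smad1 and -0.10 for Smad6, the last 3 of these against 0.11, -0.26 and 0.29 without it. Id3 (0.65) and Ranbp3l (2.70) stayed higher with NaCl in that fit.

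**Figure D4:**
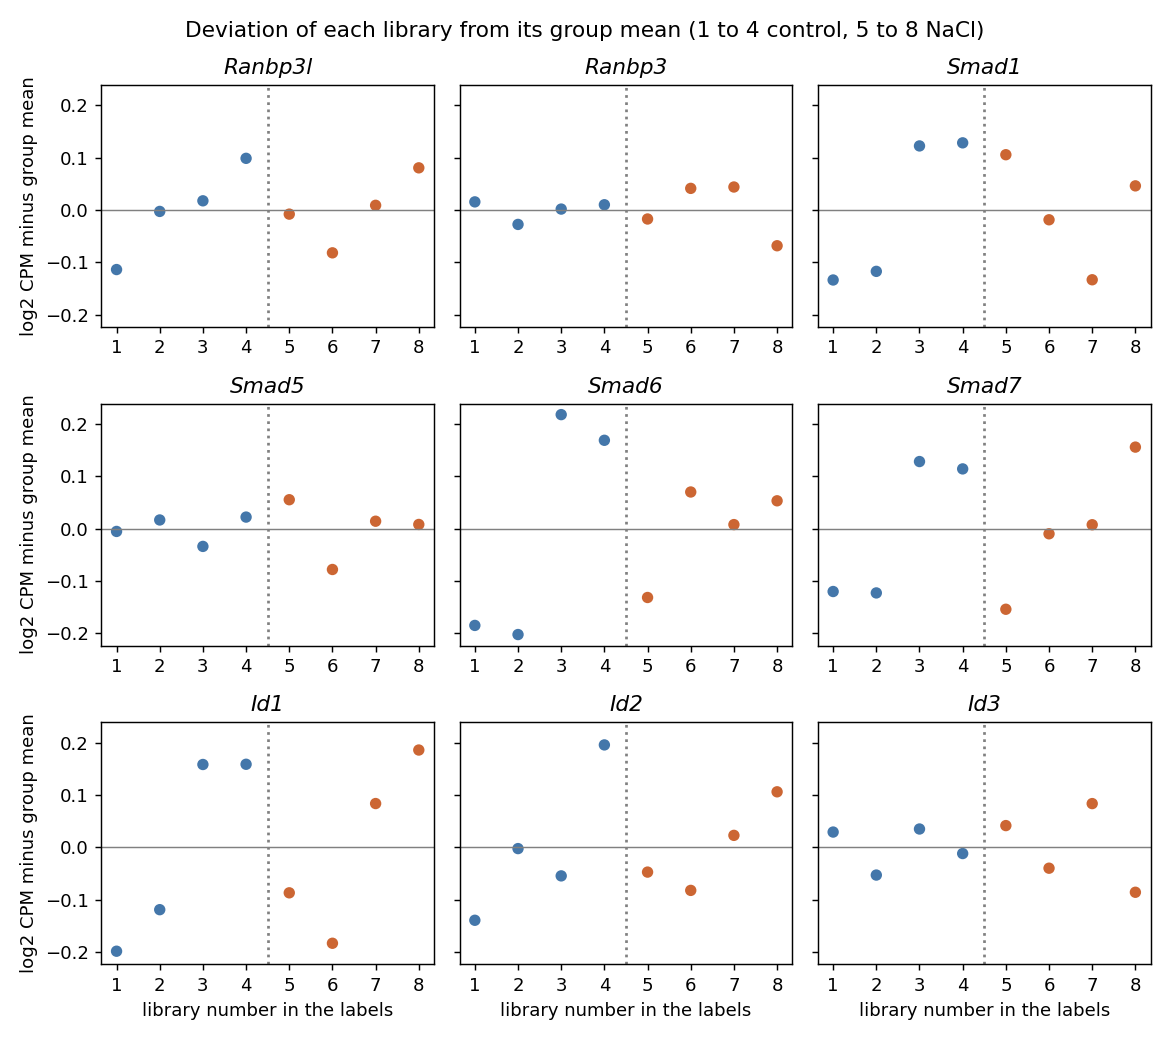
Deviation of log2 CPM in each library from the mean of its group, against the library number of the labels, for the 9 genes. Id1, Id2, Smad6, Smad7 and Ranbp3l lie lower in libraries 1 and 5 and higher in 4 and 8, which Ranbp3, Smad5 and Id3 do not show.

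The other genes of the pathway were counted by role, from lists written with earlier results of these data known. The lists held 123 genes, of which 102 were in the table and 100 were tested. Of these, 24 rose, 29 fell and 47 did not pass an adjusted p of 0.05 in edgeR's quasi-likelihood test, so 53% were called, beside 34.1% of all genes. Since the lists were made that way, nothing is read from these shares. The 100 genes had a median log2 fold change of -0.02, against 0.003 for all genes. Smad9, the third SMAD of the BMP branch, and Atoh8, a BMP target gene, rose more than 2-fold, and Grem1, a secreted BMP antagonist, rose more than any other antagonist listed. Of the 53 calls, 31 were made in the same direction with a linear drift over library numbers 1 to 8 in the fit, which called 37 genes, 15 of them higher.

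**Figure D5:**
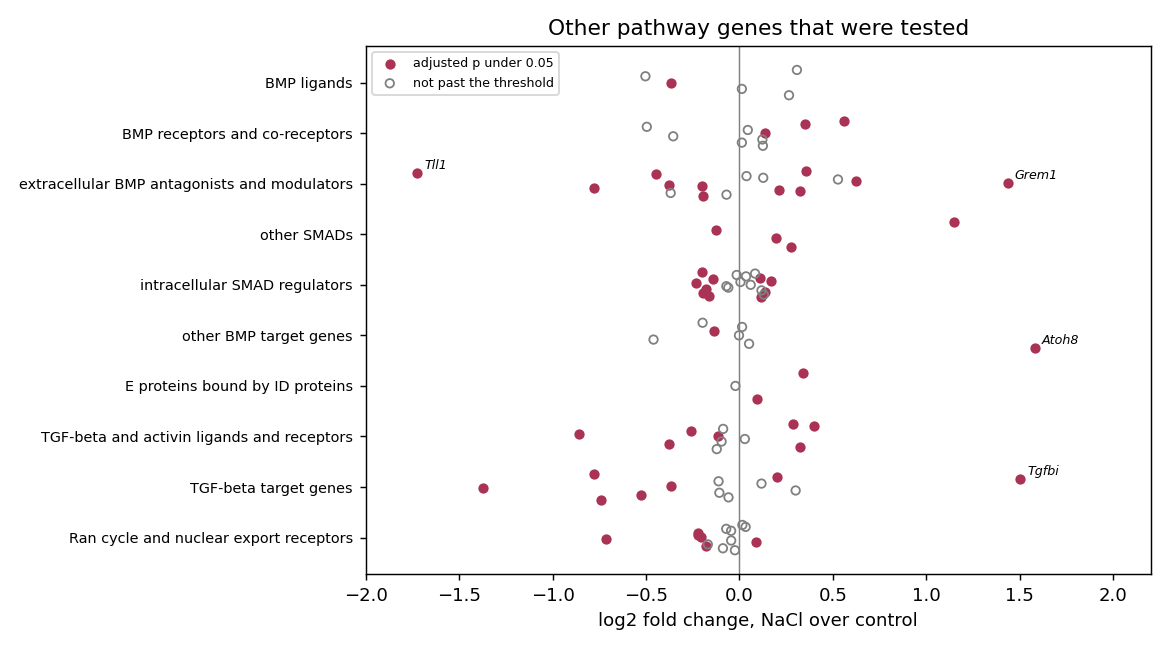
Log2 fold change (NaCl over control) of the 100 pathway genes that were tested, by list. Filled points passed an adjusted p of 0.05 and open points did not; a few genes far from 0 are named, with Atoh8 (1.58) and Tgfbi (1.502) highest and Tll1 (-1.73) lowest.

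Of 14 BMP ligand genes 5 were tested, and Bmp6 fell while 4 did not pass. Bmp6 was the most abundant, with 53.5, 56.5, 66.2 and 62.2 CPM in control and 37.8, 43.4, 51.2 and 52.6 CPM in NaCl libraries. The difference was -0.36 ± 0.11 on the log2 scale (SE, edgeR adjusted p = 0.0302). Dropping control replicate 3, control replicate 4 or NaCl replicate 6 ended the call, with edgeR adjusted p-values of 0.0588, 0.0895 and 0.0763, and a linear drift over library numbers 1 to 8 moved the difference to -0.87. Bmp4 had 16.5 ± 0.839 CPM in control and 16.6 ± 1.65 CPM with NaCl (SD, n = 4; edgeR adjusted p = 0.921). Bmp7 was near the limit of detection, with 0.316 and 0.221 CPM (edgeR adjusted p = 0.369). Bmp2 was not analysed here.

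Of 11 receptor and co-receptor genes 9 were tested, 3 rose and 6 did not pass. Rgmb, which encodes a membrane-anchored BMP co-receptor, rose from 32.3 ± 1.04 to 47.5 ± 0.869 CPM (mean ± SD of 4 libraries), or 0.56 ± 0.046 on the log2 scale (SE, edgeR adjusted p = 1.00e-07). Its relative Rgma rose by 0.35 (SE 0.073). The type I receptor gene Bmpr1a, the most abundant of the list, rose from 193 ± 3.34 to 212 ± 5.87 CPM, or 0.14 ± 0.033 on the log2 scale (SE, edgeR adjusted p = 0.00360). With a linear drift over library numbers 1 to 8 as a term, Bmpr1a no longer passed (log2 fold change 0.08, edgeR adjusted p = 0.341). Acvr1, another type I receptor gene, had a log2 fold change of 0.13 (adjusted p = 0.0857 in edgeR), which passed without NaCl replicate 5 (0.0388) and with the library number centred in each group as a term (0.0463), and Bmpr2, the type II receptor gene, had 0.04 (adjusted p = 0.440).

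Among secreted antagonists and modulators 16 of 19 genes were tested, with 5 higher and 6 lower. Grem1 had 3.98, 4.77, 2.78 and 3.19 CPM in control and 9.07, 10.03, 10.1 and 10.7 CPM in NaCl libraries. All NaCl libraries lay above the controls, and the difference was 1.44 ± 0.14 on the log2 scale (SE, edgeR adjusted p = 6.75e-07). Htra1, a secreted protease that binds TGF-beta family ligands, rose by 0.63 (SE 0.066), and Twsg1, which binds BMPs with chordin, rose from 366 to 469 CPM. Tll1, a protease of the BMP1 family that cleaves chordin, fell from 11.3 ± 2.39 to 3.38 ± 0.936 CPM (mean ± SD of 4 libraries), or -1.73 ± 0.19 on the log2 scale (SE, edgeR adjusted p = 2.02e-05). Sostdc1, a BMP antagonist of the renal tubule, fell from 155 to 114 CPM (log2 fold change -0.45), and Fst, which encodes the activin and BMP binder follistatin, fell by 0.78 on the log2 scale with groups that overlapped (edgeR adjusted p = 0.0101). With a linear drift over library numbers 1 to 8 as a term, the log2 fold change was -1.70 for Fst and -2.74 for Tll1. The other calls were Chrdl1 and Crim1, which rose, and Fstl1, Fstl3 and Bmp1, which fell.

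All 4 SMAD genes outside the described group were called. Smad9 had 4.49, 4.84, 4.16 and 5.53 CPM in control and 12.9, 11, 10.5 and 7.81 CPM in NaCl libraries. It rose by 1.146 on the log2 scale (SE 0.14; edgeR adjusted p = 1.25e-05). Smad2 and Smad3, of the TGF-beta branch, rose by 0.27 (SE 0.036) and 0.19 (SE 0.035). With a linear drift over library numbers 1 to 8 as a term, Smad3 did not pass (log2 fold change 0.08, edgeR adjusted p = 0.364). Smad4, the shared partner, fell from 108 to 99.5 CPM, or -0.12 ± 0.038 on the log2 scale (SE, edgeR adjusted p = 0.0199). Dropping control replicate 4, NaCl replicate 5 or NaCl replicate 6 ended the Smad4 call, with edgeR adjusted p-values of 0.0535, 0.0575 and 0.0643, and the linear drift moved its log2 fold change to -0.24.

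Intracellular regulators of SMADs changed little in size. Of 19 tested, 4 rose and 6 fell, all between -0.23 and 0.17 in log2 fold change. Smurf1, a ubiquitin ligase that marks SMAD1 and SMAD5 for degradation, fell by 0.23 (SE 0.037; edgeR adjusted p = 1.16e-04), and Fkbp1a, whose product holds type I receptors inactive, fell by 0.20. Stub1, another ubiquitin ligase for SMADs, rose by 0.17 (adjusted p = 7.94e-04 in edgeR). With a linear drift over library numbers 1 to 8 as a term, the adjusted p of Smurf1 in edgeR was 0.0973. Bambi was not analysed here.

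Of 7 other BMP target genes tested, Atoh8 rose, Hes1 fell and 5 did not pass. Atoh8, a transcription factor gene, had 2.08, 2.35, 2.44 and 2.13 CPM in control and 8.73, 6.91, 5.89 and 5.41 CPM in NaCl libraries. The lowest NaCl library was more than double the highest control, and the difference was 1.58 on the log2 scale (SE 0.16, edgeR adjusted p = 8.35e-07). Hes1 had 67.7 and 61.6 CPM with overlapping groups (log2 fold change -0.14, edgeR adjusted p = 0.0469). That call was lost without any 1 of control replicates 1 to 4 (0.0511, 0.0504, 0.104 and 0.0830), NaCl replicate 6 (0.168) or NaCl replicate 7 (0.0927), and with scaling by library totals alone (0.0663) or a linear drift over library numbers (0.160). Hey1 (0.01), Gata2 (-0.002) and Runx2 (-0.20) did not pass (edgeR adjusted p = 0.953, 0.992 and 0.0996). Id4 had 47 counts over the 8 libraries and was not tested. Of the 3 E protein genes whose products IDs bind, 2 rose: Tcf4 by 0.34 (SE 0.040; edgeR adjusted p = 5.09e-06) and Tcf12 by 0.09 (SE 0.033; edgeR adjusted p = 0.0422), while Tcf3 had -0.02 (adjusted p = 0.746). The Tcf12 call was lost without any 1 of control replicates 2 to 4 (0.129, 0.0854 and 0.0631) or NaCl replicates 5 to 7 (0.0506, 0.109 and 0.132), without the filter on low counts (0.0568), in limma on the authors' values (0.0510) and with the linear drift (0.267).

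Of 11 TGF-beta and activin ligand and receptor genes tested, 3 rose and 4 fell: Tgfb2 fell by 0.86 (SE 0.087; edgeR adjusted p = 1.09e-06), and Tgfbr2, the type II receptor gene, rose from 338 to 446 CPM. Of 12 TGF-beta target genes, 2 rose and 5 fell. Ccn2, a matrix-associated growth regulator, fell by 0.74 (SE 0.10), and Timp1, an inhibitor of matrix proteases, fell by 0.78 (SE 0.048). Tgfbi, an adhesion protein gene named for its induction by TGF-beta, rose by 1.502 (SE 0.071; edgeR adjusted p = 1.22e-10). With a linear drift over library numbers 1 to 8 as a term, the log2 fold change was 0.19 for Tgfbr2, against 0.40 without it, and -1.20 for Ccn2. Several of these genes also respond to other pathways.

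RAN supplies the energy for nuclear export and binds RANBP3 and RANBP3L, so its cycle and the export receptors were counted too. Of 14 tested genes, 1 rose and 5 fell, with log2 fold changes from -0.71 to 0.09. Xpo1, the main export receptor, fell from 209 ± 9.47 to 180 ± 5.55 CPM (mean ± SD of 4 libraries), or -0.22 ± 0.038 on the log2 scale (SE, edgeR adjusted p = 2.79e-04). Xpo4, an export receptor known to carry SMAD3, fell by 0.22 (SE 0.053; adjusted p = 0.00366 in edgeR), and Rangrf, a small RAN-binding protein gene, fell from 9.82 to 6.01 CPM. With a linear drift over library numbers 1 to 8 as a term, Xpo1, Xpo4 and Rangrf no longer passed (adjusted p = 0.267, 0.893 and 0.468 in edgeR), and their log2 fold changes were -0.10, 0.022 and -0.22.

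The genes most like Ranbp3l were found by the smallest Euclidean distance between log2 CPM profiles over the 8 libraries, each centred on its own mean. This likeness rests mostly on the group difference and says nothing of shared function. The 5 nearest were Aqp1 (distance 0.165 log2 units), a water channel gene, Akr1b3 (0.438), the aldose reductase gene, Cldn15 (0.627), a claudin gene of tight junctions, and the ubiquitin ligase genes Rnf183 (0.651) and Rnf182 (0.729). Aqp1 had 112, 115.5, 122 and 123 CPM in control and 863, 857, 874 and 836 CPM in NaCl libraries. Cldn15, Rnf183 and Rnf182 were scarce, with 10.95, 13.8 and 1.65 CPM in NaCl libraries on average. Both other measures of level, with a prior count of 0.5 or on the authors' normalized values, found 4 and 5 of these 5.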

How the data were processed

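Bulk RNA sequencing of 8 libraries was used. Per the labels' protocols, RNA was extracted with Trizol. The submitters' processing notes name Trim Galore 0.6.7, STAR, DESeq2 1.34.0 and the build mm10, with no roles. The counting program and strandedness are not given in the sources used here, so reads of overlapping antisense genes cannot be told apart. The deposited raw table holds read counts per Ensembl gene. The other table, made by the authors, holds a normalized signal, the raw count divided by 1 factor per library (0.864 to 1.145).

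edgeR 4.0.16 (R 4.3.3) was run on the raw table. filterByExpr with a minimum count of 10 removed 1264 genes, which held 0.0191% of all reads. The quasi-likelihood model, in its robust form, had the group as its term and TMM scaling, and p-values were adjusted over 14024 genes by Benjamini-Hochberg, with calls under 0.05. CPM used TMM-scaled totals, log2 CPM a prior count of 2, and SE was the fold change over the root of F. RPKM was CPM per kilobase of merged GENCODE M21 exons (GRCm38), so orders and shares between genes depend on that length. Transcript sharing came from blastn 2.17.0. On counts simulated for this comparison (13922 genes tested), 91% of genes changed 1.5-fold and 99% of genes changed 2-fold were recovered. The simulation gave every gene the same spread and no relation to the library number. Changes under 1.5-fold were not simulated, so these shares do not cover them.

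The 9 genes, the lists and the motifs were chosen with earlier results of these data known. The genes named were the 9, with Bmp2, Bmp4, Bmp7, Bmpr1a, Bmpr2, Acvr1, Smad4, Smad9, Bambi and Id4, up to 3 called genes at either end of each list, the 5 most like Ranbp3l, and markers; an item that the rule names is not reported here. The within-group fit on the library number was reported in addition to the planned comparison. Alternatives were other scalings (median-of-ratios size factors, library totals, upper quartile), other filters, DESeq2 1.42.0, limma-voom (limma 3.58.1), limma on the authors' table (log2, pseudocount 1), a threshold of 0.01, leaving out each library, and the library number as a covariate.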

Additional observations from a re-analysis of the deposited data

Results flagged for a closer look

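Single libraries far from their group were looked for in 106 groups of 4 values covering the 9 genes and the named pathway genes, where chance gives about 5.3. Twsg1 had one in each group. Twsg1 had 382.8 CPM in control replicate 4, above a range of 359.6 to 362.5 CPM in replicates 1 to 3. In NaCl replicate 8 it had 477.4 CPM, above a range of 465.7 to 467.6 CPM in replicates 5 to 7. The log2 fold change of Twsg1 was 0.36 with all libraries, 0.38 without control replicate 4 and 0.35 without NaCl replicate 8. None of the 9 genes had such a library.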

How the results depend on the processing

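The 9 genes were chosen with the comparison known, so their calls are listed here and nothing is read from them. Under the scalings, filters and other tests run, Ranbp3l, Smad1, Smad6 and Id3 stayed past the threshold of 0.05 and the other 5 genes did not. Leaving out 1 library left 3 or 4 of the 9 past it, with log2 fold changes from 2.85 to 2.92 for Ranbp3l, from 0.57 to 0.62 for Id3 and from -0.30 to -0.22 for Smad1. It left 4071 to 4634 genes called, and 41 to 50 of the 100 pathway genes.

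A threshold of 0.01 gave 3145 calls (1545 higher, 1600 lower) against 4789, 3 of the 9 genes without Smad6, and 19 pathway genes lower against 29. A linear drift over library numbers 1 to 8 gave log2 fold changes of 2.70 for Ranbp3l, -0.41 for Smad1, -0.10 for Smad6, -0.27 for Smad7, -0.59 for Id1 and -0.30 for Id2, and 15 pathway genes higher against 24; the cause was not tested. Of these, Smad6 (0.29 without the drift), Smad7 (0.11) and Id2 (0.01) changed sign. Under the drift 6 of the 9 genes were past the threshold, Smad1, Smad7, Id1 and Id2 lower and Ranbp3l and Id3 higher.

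Of 43 named pathway genes, 22 kept direction and call in every refit run, including Smad9, Atoh8, Grem1, Rgmb, Tll1 and Tgfbi. Bmp4, which was not called, reversed without control replicate 2 or 4 (-0.01 each) and without NaCl replicate 8, over a leave-one-out range of -0.0348 to 0.0769, as well as under the drift (-0.15). Under the drift Bmpr2 (-0.056), Tgfbr3 (-0.064), Thbs1 (-0.12) and Xpo4 (0.022) reversed.

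No paired analysis was possible because the groups share no replicate number in the labels. Depth limits Bmp5, Bmp7, Id4, Acvrl1 and Dlx3, which had at most 91 counts over the 8 libraries.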
